A study of Homo sapiens with 24 samples.

Results

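The 10 genes described here encode the sensors of the unfolded protein response (UPR), the transcription factors that act with them, and the proteases that release those factors. They are ERN1 and XBP1 of the IRE1 arm, EIF2AK3 of the PERK arm, ATF6 and ATF6B of the ATF6 arm, the relatives CREB3, CREB3L2 and CREB3L4, and the proteases MBTPS1 and MBTPS2. The genes were taken from a list, and each was read from its brightest probe set that belongs to 1 gene alone, with its other probe sets beside it. The members and the target lists below were chosen with earlier results of these data known, so counts over them are descriptions. All 10 had such a probe set, out of 19775 genes that had one. All 10 also reached log2 4 on at least 3 arrays, as did 10661 genes in all, and only these were tested.

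The samples were 4 established human cell lines of T-ALL, a leukaemia of immature T cells, named P12-ICHIKAWA, SUPT11, RPMI-8402 and TALL-1. Each line received the compound NVS-ZP7-3 or DMSO, its solvent, for 16 h, and every group, treated or not, held 0.5% DMSO. There were 3 arrays in each of the 8 groups, 24 in all, and the labels give no genotype, dose or target. Whether the arrays of a group hold RNA of separate cultures is not stated, so a p-value reflects the spread among these arrays, which may be technical. By its name the compound belongs to a series known for inhibitors of ZIP7 (SLC39A7), which carries zinc out of the endoplasmic reticulum (ER). With 1 culture line per leukaemia, differences among lines are differences among these 4 lines only.

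The UPR adjusts the folding capacity of the ER to its load. IRE1, encoded by ERN1, senses unfolded protein and cuts an intron out of XBP1 mRNA, after which the spliced mRNA is translated into an active transcription factor. PERK, encoded by EIF2AK3, phosphorylates a translation initiation factor, which slows protein synthesis and favours translation of ATF4. ATF6 and ATF6B are transcription factors held in the ER membrane. Under stress they move to the Golgi, where the site-1 protease (MBTPS1) and the site-2 protease (MBTPS2) cut them free, and the CREB3 family is released by the same cuts. IRE1 splicing, PERK phosphorylation and ATF6 cleavage leave the mRNA of the sensor as it is, so mRNA levels of the members do not measure the activity of an arm.

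Values are on the deposited log2 scale, on which 1 unit is a doubling and undetected probe sets lie at a floor of 2.182. Arrays of a group correlated at 0.993 to 0.998 across genes, and arrays of different lines at 0.735 to 0.873. Of 10 T lineage markers, 8 or 9 reached log2 4 on all arrays of each group, among them CD3D, CD3E, CD3G and LCK, while CD5 in TALL-1, CD2 in P12-ICHIKAWA and CD1A in SUPT11 and RPMI-8402 lay at or near the floor. Transcripts foreign to the line stood on 3 arrays, treated array 2 of TALL-1 and of SUPT11 and DMSO array 3 of RPMI-8402. There, between 8.54 and 12.2% of the genes that were off in the line and bright in another were raised. The search counted genes that were off on all other arrays of the line. A foreign transcript shared by several arrays of a line was therefore not counted, and the other arrays are not shown to be free of them. The counts of called members without these arrays are given at the end, and values for some members in their paragraphs. The red cell gene HBB varied from the floor to 14.65 among arrays. The difference between 3' and 5' probe sets of ACTB, which reflects RNA integrity, was larger on treated arrays by 0.49 in TALL-1 and by 0.30 in RPMI-8402 (exact permutation test, two-sided p = 0.1 in each, the smallest possible with groups of 3). For SUPT11 and P12-ICHIKAWA it moved by 0.048 and 0.044, and the same difference for GAPDH moved by 0.0425 or less in any line.

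With NVS-ZP7-3, 9 of the 10 genes rose in TALL-1, 8 in RPMI-8402, 5 in P12-ICHIKAWA and 3 in SUPT11 (limma, Benjamini-Hochberg adjusted over all genes tested, called below 0.05). Of all genes tested, 22.3% rose in TALL-1, 15.1% in RPMI-8402, 4.91% in P12-ICHIKAWA and 1.18% in SUPT11. The adjustment was made for each line apart. A change with the same spread thus passes less easily in SUPT11 and P12-ICHIKAWA, where fewer genes changed, and the counts of members depend on this. No member fell in any line by the same limma test, and none was lower at an unadjusted p under 0.05 either. The shares of all genes that fell were 19.6, 21.5, 2.98 and 0.582% in the same order of lines. XBP1, CREB3L2 and CREB3L4 rose in all 4 lines, each with a call that some alternatives ended, and MBTPS1 was called in none. The median change of the 10 was 0.64 in TALL-1, 0.63 in RPMI-8402, 0.29 in P12-ICHIKAWA and 0.09 in SUPT11, beside medians between -0.02 and 0.0001 over all genes tested. Treated and DMSO arrays did not overlap for 9 of the 10 members in TALL-1 and in RPMI-8402, 7 in P12-ICHIKAWA and 5 in SUPT11. The groups of 48.8, 49.2, 21.4 and 16.6% of all genes tested did not overlap in these lines, so that a gap between groups is common, above all in TALL-1 and RPMI-8402. In bulk samples, fewer cells with a transcript and less of it per cell cannot be told apart.

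**Figure D1:**
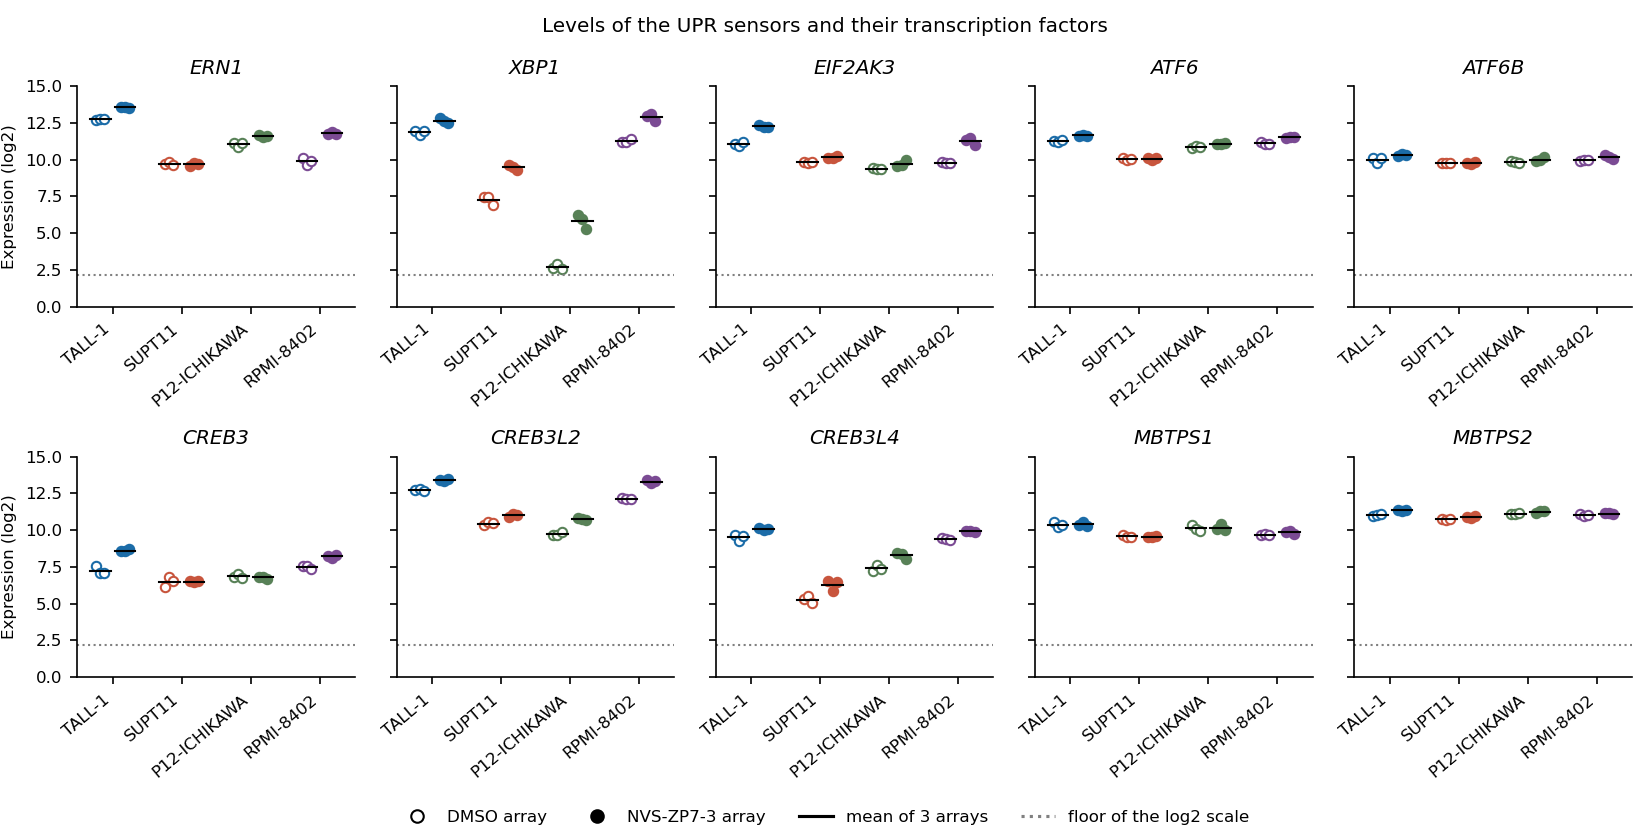
Level of each gene on the 24 arrays (y axis, log2), by line (x axis), with DMSO arrays as open points, NVS-ZP7-3 arrays as filled points, the mean of 3 arrays as a bar and the floor of 2.182 as a dotted line. XBP1 ranges from 2.56 in P12-ICHIKAWA with DMSO to 13.07 in RPMI-8402 with NVS-ZP7-3, while the panels of ATF6B, MBTPS1 and MBTPS2 are nearly flat.

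ERN1 was raised in 3 of the 4 lines and not in SUPT11. In RPMI-8402 the DMSO arrays read 10.12, 9.65 and 9.90 and the treated arrays 11.73, 11.89 and 11.75. In TALL-1 the DMSO arrays read 12.69, 12.73 and 12.79 and the treated arrays 13.57, 13.58 and 13.53. The treated arrays lay above every DMSO array in both lines, by a wider gap in RPMI-8402. In P12-ICHIKAWA the DMSO arrays read 11.12, 10.87 and 11.12 and the treated arrays 11.67, 11.56 and 11.61, again without overlap. In SUPT11 the DMSO arrays read 9.67, 9.84 and 9.63 and the treated arrays 9.55, 9.77 and 9.72, and the groups overlapped.

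The change in ERN1 was 1.90 ± 0.096 in RPMI-8402 (SE, n = 3 arrays per group; limma adjusted p = 2.21e-11), a 3.73-fold rise. It was 0.82 in TALL-1 (limma adjusted p = 1.43e-06) and 0.58 in P12-ICHIKAWA (limma adjusted p = 7.07e-04), with the same SE. In SUPT11 it was -0.03, with a 95% interval from -0.23 to 0.17, so a rise as large as that in P12-ICHIKAWA lay outside the interval. The change in RPMI-8402 exceeded that in TALL-1 by 1.08 (limma adjusted p = 1.29e-05), and the change in P12-ICHIKAWA exceeded that in SUPT11 by 0.61 (limma adjusted p = 0.0252). The changes in TALL-1 and P12-ICHIKAWA were not told apart (difference 0.24, 95% interval -0.04 to 0.53). With DMSO, TALL-1 held the most ERN1 (mean 12.74 ± 0.048 SD, n = 3), followed by P12-ICHIKAWA at 11.04 ± 0.14, and RPMI-8402 at 9.89 ± 0.23 did not differ from SUPT11 at 9.71 ± 0.11 beyond the spread. After treatment all arrays of RPMI-8402 lay above those of P12-ICHIKAWA and SUPT11, and below those of TALL-1.

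XBP1 rose in every line, with the larger values of the change in the lines that held less of it. In P12-ICHIKAWA the DMSO arrays read 2.603, 2.88 and 2.56, near the floor, and the treated arrays 6.21, 5.96 and 5.29. In SUPT11 the DMSO arrays read 7.43, 7.48 and 6.94 and the treated arrays 9.63, 9.52 and 9.31. In both lines the treated arrays were far above the DMSO arrays. In RPMI-8402 the DMSO arrays read 11.22, 11.18 and 11.40 and the treated arrays 12.97, 13.07 and 12.60. In TALL-1 the DMSO arrays read 11.97, 11.68 and 11.96 and the treated arrays 12.81, 12.63 and 12.47. The groups were apart in these lines too, and the treated P12-ICHIKAWA arrays still lay below the DMSO arrays of SUPT11.

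The XBP1 change was 3.14 ± 0.19 in P12-ICHIKAWA (SE, n = 3 arrays per group; limma adjusted p = 4.67e-09). Since its DMSO level lay near the floor, any part of that change below the floor was not seen. The change was 2.21 in SUPT11 (limma adjusted p = 8.98e-07), 1.61 in RPMI-8402 (limma adjusted p = 3.07e-06) and 0.77 in TALL-1 (limma adjusted p = 0.00362), which are rises of 4.61-fold, 3.05-fold and 1.70-fold. The change in TALL-1 was below that in RPMI-8402 by 0.84 (limma adjusted p = 0.0330) and below that in SUPT11 by 1.44 (limma adjusted p = 6.82e-04). The difference between P12-ICHIKAWA and SUPT11 was 0.93 (95% interval 0.36 to 1.51), which did not pass after adjustment (limma adjusted p = 0.115). With DMSO all neighbours in the order of XBP1 differed, TALL-1 at 11.87, RPMI-8402 at 11.27, SUPT11 at 7.28 and P12-ICHIKAWA at 2.68. The order of the DMSO levels was the reverse of the order of the changes. The DMSO level is subtracted in each change, so these orders are not independent, and a relation between them was not tested. The step between SUPT11 and RPMI-8402 in the changes, 0.60, did not pass the test (limma adjusted p = 0.152). With the ACTB difference added to the model the TALL-1 change was 0.71 and did not pass (limma adjusted p = 0.101). The probe set does not separate spliced from unspliced XBP1 mRNA.

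HBB moved with treatment in P12-ICHIKAWA, where XBP1 changed most. It read 2.182, 2.29 and 2.182 with DMSO and 11.45, 8.17 and 7.96 with NVS-ZP7-3, so that within this line HBB and treatment cannot be told apart. Of 3 erythroid markers with a probe set, AHSP and ALAS2 stayed at the floor on all arrays of the line. LYZ was the one of 7 myeloid markers to reach log2 4 there, at 5.50 to 8.01 with NVS-ZP7-3 against 2.28 to 2.99 with DMSO. In SUPT11 the first treated array had HBB at the floor and XBP1 at 9.63, the highest of its group. In RPMI-8402 DMSO array 3 had HBB at 14.65 and XBP1 at 11.40, against 11.22 and 11.18 on the other DMSO arrays. On all treated arrays of RPMI-8402, too, 1 of the 3 erythroid markers reached log2 4. With the HBB level as a covariate the XBP1 change in P12-ICHIKAWA was 3.03. Since HBB moved with treatment in this line, that model cannot separate them, and whether the source of HBB bears on XBP1 was not tested.

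**Figure D2:**
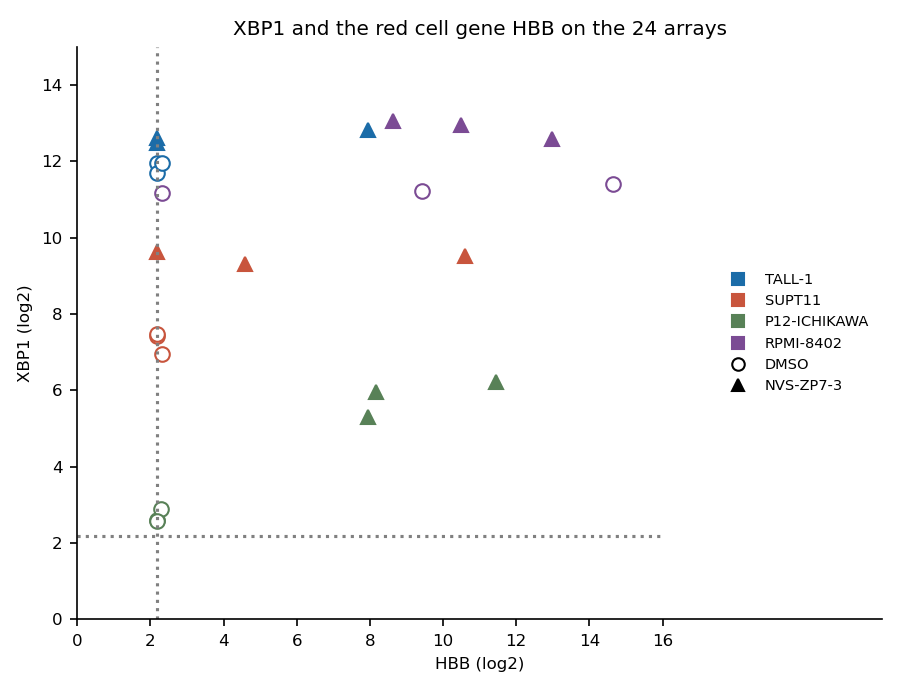
XBP1 (y axis, log2) against the red cell gene HBB (x axis, log2) on the 24 arrays, coloured by line, with DMSO as circles, NVS-ZP7-3 as triangles and the floor as dotted lines. Within each line all triangles lie above all circles, and P12-ICHIKAWA has no treated array with HBB near the floor.

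The promoter of XBP1 is shown because XBP1 is the member that holds an ER stress response element (ERSE), as do several ER chaperone genes that rose beside it. The sequence is the 250 bases before the start site from RefSeq, GRCh38.p14, chr22:28800570-28800819, minus strand, with the parts of the ERSE in capitals.
XBP1: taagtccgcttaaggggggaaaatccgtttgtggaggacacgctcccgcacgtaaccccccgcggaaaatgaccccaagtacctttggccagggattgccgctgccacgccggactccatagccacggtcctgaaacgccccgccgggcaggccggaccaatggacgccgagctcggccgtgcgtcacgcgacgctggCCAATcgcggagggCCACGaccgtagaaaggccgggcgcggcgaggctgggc
The ERSE was searched on both strands as CCAAT, then any 9 bases, then CCACG. In XBP1 it spans bases -52 to -34 from the start site. Such a match stood in 27 of 35116 windows of the same length, 250 bases before to 50 after a start, a share of 0.0769%. The windows of ATF6 targets with the ERSE are shown beside it, cut to the element and 5 bases either side and turned so that it reads in 1 direction, with its parts in capitals. From the same build they are HSPA5 chr9:125241386-125241414 (minus strand), HSP90B1 chr12:103930211-103930239 (plus strand), CALR chr19:12938379-12938407 (minus strand), PDIA6 chr2:10812848-10812876 (minus strand) and CRELD2 chr22:49918549-49918577 (minus strand).
XBP1: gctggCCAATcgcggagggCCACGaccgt
HSPA5: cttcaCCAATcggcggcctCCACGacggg
HSP90B1: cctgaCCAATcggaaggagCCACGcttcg
CALR: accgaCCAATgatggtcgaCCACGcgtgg
PDIA6: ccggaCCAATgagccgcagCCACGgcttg
CRELD2: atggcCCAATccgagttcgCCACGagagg
HSP90B1 has a second match in its window, at bases -89 to -71 on the other strand. Of the 12 ATF6 targets, 5 had the ERSE, and the related ERSE-II (ATTGG, any base, CCACG), found in 0.0541% of windows, stood in HYOU1, SDF2L1 and HERPUD1. Of the 10 members, all matched to RefSeq with 12 windows, XBP1 was the one with an ERSE, none had an ERSE-II, and none had the core of the UPR element (TGACGTG, in 1.97% of windows). XBP1 has another start site in the table, whose window held no match. The list holds known ATF6 targets, its counts are of genes beside shares of windows, and no enrichment was tested. A match is a run of letters and does not show that a factor binds there.

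Genes known as XBP1 targets rose in number in TALL-1 and RPMI-8402. Of 14 tested, which serve ER translocation, export and degradation, 13 rose in each of these lines, 5 in P12-ICHIKAWA and 3 in SUPT11, and none fell by limma or at an unadjusted p under 0.05. The median changes were 0.84, 0.82, 0.15 and 0.14 in that order. In RPMI-8402 DNAJB9, a co-chaperone that binds IRE1, rose by 2.63 ± 0.12 and SEC24D, a coat protein of ER export, by 2.10 ± 0.14. In TALL-1 SEC24D rose by 1.92 ± 0.14, SEC61A1, the pore of the translocon, by 1.43 ± 0.075 and DNAJB9 by 1.25 ± 0.12. EDEM1, which marks misfolded glycoproteins for degradation, rose by 0.69 ± 0.068 in P12-ICHIKAWA and by 0.33 ± 0.068 in SUPT11. DNAJC3, an ER co-chaperone, rose by 0.67 ± 0.054 in SUPT11, the largest change of the list there, by 0.57 ± 0.054 in P12-ICHIKAWA and by 1.46 ± 0.054 in RPMI-8402. In SUPT11, XBP1 mRNA changed by 2.21 while the median of its target list was 0.14. The targets were not flat there, since 7 of the 14 were higher at an unadjusted p under 0.05 by limma, as were 7 in P12-ICHIKAWA.

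The factors that act with IRE1 moved little. Of 8 tested genes of XBP1 mRNA ligation and IRE1 control, 1 rose and 1 fell in TALL-1, and 1 rose and 3 fell in RPMI-8402. None was called in SUPT11 or P12-ICHIKAWA by limma, where 0 and 2 were lower at an unadjusted p under 0.05. In RPMI-8402 RTCB, the ligase that joins the XBP1 exons, fell by 0.30 ± 0.077, FAM98B of the ligase complex fell by 0.26 ± 0.037 and DDX1 fell by 0.19 ± 0.069. In TALL-1 FAM98B fell by 0.18 ± 0.037 and TMBIM6, an inhibitor of IRE1, rose by 0.13 ± 0.036. BLOC1S1, the best known mRNA cut by IRE1 outside XBP1, was called, while HGSNAT, another decay substrate, was not called in any line (changes of 0.05 to 0.16). COL6A1 entered the tests through its level in SUPT11 and lay at the floor on all arrays of the other lines, where it could not fall. BLOC1S1 fell by 0.33 ± 0.099 in RPMI-8402 (limma adjusted p = 0.0126), by 0.66 in P12-ICHIKAWA (limma adjusted p = 2.27e-04) and by 0.74 in TALL-1 (limma adjusted p = 6.82e-06). In SUPT11 its change was -0.03, with a 95% interval from -0.23 to 0.18.

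EIF2AK3, the PERK gene, rose in RPMI-8402 and TALL-1. The RPMI-8402 arrays read 9.81, 9.74 and 9.76 with DMSO and 11.31, 11.48 and 11.02 with NVS-ZP7-3. The TALL-1 arrays read 11.03, 10.94 and 11.18 with DMSO and 12.36, 12.19 and 12.21 with NVS-ZP7-3. In both lines the treated arrays lay well above the DMSO arrays. The SUPT11 arrays read 9.83, 9.78 and 9.83 with DMSO and 10.14, 10.11 and 10.25 with NVS-ZP7-3, and in P12-ICHIKAWA 9.41, 9.34 and 9.35 against 9.56, 9.60 and 9.97. The groups did not overlap there either, and the gaps were small.

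The EIF2AK3 change was 1.501 ± 0.10 in RPMI-8402 (SE, n = 3 arrays per group; limma adjusted p = 1.93e-09) and 1.20 in TALL-1 (limma adjusted p = 3.39e-08). These changes were not told apart (difference 0.30, 95% interval -0.01 to 0.61). In SUPT11 and P12-ICHIKAWA the changes were 0.35 and 0.34, and neither passed the test after adjustment (limma adjusted p = 0.142 and 0.0522). Their 95% intervals, 0.13 to 0.57 and 0.12 to 0.56, lay above 0, so a smaller rise there is not excluded by the missing call. In P12-ICHIKAWA the adjusted p was between 0.0232 and 0.282 over the alternatives and passed in 6 of 37, without its first treated array among them (0.42, limma adjusted p = 0.0372). The change in TALL-1 exceeded that in SUPT11 by 0.85 (limma adjusted p = 2.72e-04) and that in P12-ICHIKAWA by 0.86 (limma adjusted p = 3.21e-04). With DMSO the order was TALL-1 at 11.05, SUPT11 at 9.82, RPMI-8402 at 9.77 and P12-ICHIKAWA at 9.37, in which SUPT11 and RPMI-8402 did not differ beyond the spread (difference 0.05 ± 0.10, SE).

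Of 10 tested genes downstream of PERK and ATF4, 9 rose in each of TALL-1, RPMI-8402 and P12-ICHIKAWA, with medians of 2.605, 1.57 and 1.51, and 3 rose in SUPT11, with a median of 0.15. None fell by limma or at an unadjusted p under 0.05. CHAC1, which degrades glutathione, rose by 0.76 ± 0.13 in SUPT11, 1.81 in P12-ICHIKAWA, 3.88 in TALL-1 and 5.18 in RPMI-8402. With DMSO it lay near the floor in TALL-1 (2.25) and RPMI-8402 (2.32), so that any part of those changes below the floor was not seen. The changes in these lines are thus lower bounds, and they set no order between TALL-1 and RPMI-8402. DDIT3, the stress transcription factor CHOP, rose by 4.56 ± 0.14 in RPMI-8402 and by 3.28 in TALL-1, with 2.51 in SUPT11 and 2.71 in P12-ICHIKAWA. The third gene called in SUPT11 was VLDLR (1.33 ± 0.31). TRIB3 had the largest change of the list in TALL-1 (4.45 ± 0.16) and rose by 4.44 in RPMI-8402 and 2.14 in P12-ICHIKAWA. SESN2 rose by 3.76 ± 0.23 in TALL-1. In SUPT11 TRIB3 (0.12) and SESN2 (0.28) were not called. P12-ICHIKAWA thus had 9 of 10 targets raised while EIF2AK3 itself did not pass the test there. Other kinases also lead to ATF4, and the list does not separate them from PERK.

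ATF6 rose by small amounts in 3 lines. The TALL-1 arrays read 11.24, 11.17 and 11.33 with DMSO and 11.61, 11.69 and 11.61 with NVS-ZP7-3. The RPMI-8402 arrays read 11.20, 11.05 and 11.08 with DMSO and 11.48, 11.53 and 11.51 with NVS-ZP7-3. The P12-ICHIKAWA arrays read 10.80, 10.92 and 10.84 with DMSO and 11.04, 11.08 and 11.12 with NVS-ZP7-3. In each of these lines the treated arrays lay above all DMSO arrays. The SUPT11 arrays read 10.09, 9.94 and 10.03 with DMSO and 10.08, 10.00 and 10.10 with NVS-ZP7-3, and the groups overlapped.

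The ATF6 change was 0.40 ± 0.054 in RPMI-8402 (SE, n = 3 arrays per group; limma adjusted p = 1.14e-05), a 1.32-fold rise, 0.39 in TALL-1 (limma adjusted p = 8.99e-06) and 0.23 in P12-ICHIKAWA (limma adjusted p = 0.0109). In SUPT11 it was 0.04, with a 95% interval from -0.07 to 0.15. The rise in P12-ICHIKAWA did not pass without its first DMSO array (0.20, limma adjusted p = 0.0530) or without treated array 3 (0.21, limma adjusted p = 0.0502). SUPT11 differed from TALL-1 by 0.35 (limma adjusted p = 0.00201) and from RPMI-8402 by 0.36 (limma adjusted p = 0.00278), and not from P12-ICHIKAWA (0.19, 95% interval 0.03 to 0.35; limma adjusted p = 0.343). With DMSO ATF6 was highest in TALL-1 at 11.25, then RPMI-8402 at 11.11, P12-ICHIKAWA at 10.85 and SUPT11 at 10.02, and all neighbours differed (limma adjusted p of 0.0280 or less).

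ATF6B, the weaker paralogue of ATF6, was the member with the most even DMSO level, with means of 9.99, 9.95, 9.84 and 9.74 in TALL-1, RPMI-8402, P12-ICHIKAWA and SUPT11. No neighbours in that order were told apart, while SUPT11 was below TALL-1 by 0.24 (limma adjusted p = 0.0183) and below RPMI-8402 by 0.21 (limma adjusted p = 0.0382). It rose by 0.32 ± 0.089 in TALL-1 (SE, n = 3 arrays per group; limma adjusted p = 0.00697) and by 0.23 in RPMI-8402 (limma adjusted p = 0.0467). Both calls were lost under some alternatives. The TALL-1 value was 0.19 without the second DMSO array (limma adjusted p = 0.0526), 0.28 when those with foreign transcripts were left out (limma adjusted p = 0.0510), and 0.19 with the ACTB difference as a covariate (limma adjusted p = 0.328). The RPMI-8402 call held in 12 of 37 alternatives, and over all of them the value lay between 0.02 and 0.30, with adjusted p between 0.0107 and 0.927. It was 0.17 without the first treated array (limma adjusted p = 0.208), and the call was lost without any other of that line's arrays except treated array 3. In P12-ICHIKAWA and SUPT11 the changes were 0.16 and 0.03, below the threshold.

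The ATF6 targets were raised in all 4 lines, SUPT11 included. Of 12 tested chaperones and folding or degradation factors, 12 rose in SUPT11 and RPMI-8402 and 11 in TALL-1 and P12-ICHIKAWA, with medians of 0.75, 1.14, 0.59 and 0.61. None fell by limma or at an unadjusted p under 0.05. HSPA5, the chaperone BiP, rose by 1.43 ± 0.067 in RPMI-8402, 1.36 in SUPT11, 1.05 in P12-ICHIKAWA and 0.40 in TALL-1. HERPUD1, which serves ER-associated degradation, rose by 2.53 ± 0.057 in RPMI-8402 and between 1.08 and 1.21 in the other lines. CRELD2, an ER isomerase, rose by 3.05 ± 0.096 in RPMI-8402 and by 0.79 in SUPT11. In SUPT11 the targets rose with neither ATF6 nor ATF6B past the test, and the gene CALR, a lectin chaperone, was the target not called in TALL-1 (0.18) and P12-ICHIKAWA (0.23). The spliced form of XBP1 also acts on many of these genes, so the list does not belong to ATF6 alone. Since it was chosen with earlier results of these data known, its counts do not test the activity of ATF6.

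The genes linked to transport of ATF6 and the sterol factors to the Golgi changed in part. The list holds both carriers and proteins that hold these factors back. Of 7 tested, 3 rose in TALL-1, 4 in RPMI-8402, 1 in SUPT11 and 1 in P12-ICHIKAWA, where 1 also fell (TXNDC12, a thioredoxin of the ER, by 0.17 ± 0.047). WFS1, an ER membrane protein that restrains ATF6, rose by 2.70 ± 0.24 in TALL-1, 1.76 in RPMI-8402 and 1.01 in P12-ICHIKAWA, where treated and DMSO arrays overlapped. SEC24A, a coat protein of ER export, rose by 0.55 ± 0.064 in TALL-1 and 0.44 in RPMI-8402. INSIG1, which holds the sterol factors in the ER, rose by 0.45 ± 0.074 in SUPT11 and 0.41 in RPMI-8402. SREBF2, a sterol factor released by the same proteases as ATF6, rose by 0.40 ± 0.092 in TALL-1, 0.37 in SUPT11 and 0.56 in RPMI-8402. It was the 1 gene called of 3 tested relatives outside the members, and SREBF1 and ERN2, the second IRE1 gene, were not called in any line.

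Of the relatives of ATF6, CREB3 rose in TALL-1 and RPMI-8402, while CREB3L2 and CREB3L4 rose in all 4 lines. CREB3, also called Luman, is an ER-bound factor of secretory stress, and its probe set, like that of CREB3L2, can match more than 1 transcript. In TALL-1 the DMSO arrays read 7.54, 7.05 and 7.05 and the treated arrays 8.57, 8.54 and 8.69. In RPMI-8402 the DMSO arrays read 7.55, 7.57 and 7.34 and the treated arrays 8.23, 8.10 and 8.32. No treated array of these lines came down to a DMSO array. In SUPT11 the DMSO arrays read 6.14, 6.81 and 6.54 and the treated arrays 6.55, 6.44 and 6.52, and in P12-ICHIKAWA 6.83, 7.02 and 6.71 against 6.84, 6.83 and 6.70. There the groups overlapped.

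The CREB3 change was 1.39 ± 0.14 in TALL-1 (SE, n = 3 arrays per group; limma adjusted p = 2.52e-07) and 0.73 in RPMI-8402 (limma adjusted p = 4.93e-04), and these differed by 0.66 (limma adjusted p = 0.0230). In SUPT11 it was 0.01 (95% interval -0.29 to 0.30) and in P12-ICHIKAWA -0.06 (95% interval -0.36 to 0.23), both apart from RPMI-8402 (limma adjusted p = 0.0168 and 0.0111). With DMSO CREB3 was lowest in SUPT11 at 6.50, then 6.86 in P12-ICHIKAWA, 7.21 in TALL-1 and 7.49 in RPMI-8402, of which the last pair did not differ beyond the spread (limma adjusted p = 0.0899). Of 7 tested genes of secretory transport known as targets of the CREB3 family, 7 rose in TALL-1 and 5 in RPMI-8402, with medians of 0.44 and 0.34. None was called in SUPT11 or P12-ICHIKAWA, where 1 and 0 were higher at an unadjusted p under 0.05. GBF1 had the largest change of the list in TALL-1 (1.03 ± 0.21) and was not called in RPMI-8402 (0.48). ARF4, a small GTPase of the Golgi, rose by 0.84 ± 0.064 in TALL-1 and 0.57 in RPMI-8402, and SEC13, a coat protein of ER export, rose by 0.54 ± 0.061 in TALL-1.

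CREB3L2, an ER-bound factor that drives secretory genes, rose in all 4 lines. In P12-ICHIKAWA the DMSO arrays read 9.63, 9.65 and 9.87 and the treated arrays 10.80, 10.73 and 10.65. In RPMI-8402 the DMSO arrays read 12.15, 12.10 and 12.12 and the treated arrays 13.39, 13.18 and 13.32. In TALL-1 the DMSO arrays read 12.71, 12.80 and 12.63 and the treated arrays 13.43, 13.37 and 13.48. Treated and DMSO arrays were clearly apart in these lines. In SUPT11 the DMSO arrays read 10.32, 10.55 and 10.47 and the treated arrays 10.90, 11.09 and 11.004, closer but without overlap. The change was 1.17 ± 0.076 in RPMI-8402 (SE, n = 3 arrays per group; limma adjusted p = 7.54e-10), 1.01 in P12-ICHIKAWA (limma adjusted p = 5.73e-08), 0.71 in TALL-1 (limma adjusted p = 5.11e-07) and 0.56 in SUPT11 (limma adjusted p = 2.51e-04). With the 6 arrays of SUPT11 alone its rise did not pass (limma adjusted p = 0.114). No neighbours in the order of the changes differed past the threshold, while RPMI-8402 exceeded TALL-1 by 0.47 (limma adjusted p = 0.00433) and SUPT11 by 0.62 (limma adjusted p = 4.85e-04). With DMSO the order was TALL-1 at 12.71, RPMI-8402 at 12.12, SUPT11 at 10.45 and P12-ICHIKAWA at 9.72, and all neighbours differed.

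CREB3L4 also rose in all 4 lines, from DMSO levels that were far apart. The SUPT11 arrays read 5.28, 5.49 and 5.05 with DMSO and 6.51, 5.85 and 6.46 with NVS-ZP7-3. The P12-ICHIKAWA arrays read 7.19, 7.63 and 7.38 with DMSO and 8.45, 8.38 and 8.04 with NVS-ZP7-3. The second treated array of SUPT11, 1 of those with foreign transcripts, was the lowest of its group. The TALL-1 arrays read 9.69, 9.24 and 9.58 with DMSO and 10.14, 10.01 and 10.07 with NVS-ZP7-3. The RPMI-8402 arrays read 9.46, 9.38 and 9.31 with DMSO and 9.96, 9.91 and 9.89 with NVS-ZP7-3. In no line did the groups overlap.

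The CREB3L4 change was 0.998 ± 0.16 in SUPT11 (SE, n = 3 arrays per group; limma adjusted p = 0.00132) and 0.89 in P12-ICHIKAWA (limma adjusted p = 0.00159). It was 0.57 in TALL-1 (limma adjusted p = 0.00810) and 0.54 in RPMI-8402 (limma adjusted p = 0.0132). With the 3 arrays that held foreign transcripts left out, the SUPT11 change was 1.21. The TALL-1 change was 0.44 without its second DMSO array (limma adjusted p = 0.0532) and 0.70 with the ACTB difference as a covariate (limma adjusted p = 0.0506). With the 6 arrays of a line alone, the rises in SUPT11 (limma adjusted p = 0.212) and P12-ICHIKAWA (limma adjusted p = 0.0888) did not pass. The changes did not differ among lines past the threshold (F test, limma adjusted p = 0.248), and the largest difference, between SUPT11 and RPMI-8402, was 0.46 with a 95% interval from -0.02 to 0.94. With DMSO TALL-1 at 9.50 and RPMI-8402 at 9.38 were not told apart, and P12-ICHIKAWA at 7.40 and SUPT11 at 5.28 followed at steps of 1.98 and 2.13. The relatives CREB3L1 and CREB3L3 lay near the floor, with no array above 2.25 for the first and 3.08 for the second, and were not tested.

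The promoters of CREB3L2 and CREB3L4 are shown because, with XBP1, these are the members that rose in every line. Each is the 250 bases before a start site from RefSeq, GRCh38.p14, CREB3L2 at chr7:138002087-138002336 (minus strand, 62.4% G or C) and CREB3L4 at chr1:153968000-153968249 (plus strand, 52.0% G or C). Capitals mark a cyclic AMP response element (CRE, TGACGTCA), a motif that was added after the sequence had been seen.
CREB3L2: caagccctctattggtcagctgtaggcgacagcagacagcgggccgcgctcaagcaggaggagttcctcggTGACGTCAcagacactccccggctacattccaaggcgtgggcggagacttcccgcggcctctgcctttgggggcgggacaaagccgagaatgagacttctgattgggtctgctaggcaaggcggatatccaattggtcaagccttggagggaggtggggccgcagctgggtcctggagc
CREB3L4: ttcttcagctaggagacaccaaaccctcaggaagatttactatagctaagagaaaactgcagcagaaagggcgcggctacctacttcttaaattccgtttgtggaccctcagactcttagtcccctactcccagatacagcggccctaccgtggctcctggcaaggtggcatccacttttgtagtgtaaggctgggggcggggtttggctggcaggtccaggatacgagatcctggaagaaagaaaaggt
The CRE lay at bases -179 to -172 of CREB3L2, reads the same on both strands, and stood in 1.85% of all windows and in no other member. The CCAAT-enhancer and ATF element (TGATG, any base, AA), in 3.62% of windows, matched among the members at the other start site of CREB3L2. CREB3L4 held none of the 5 motifs. None of the sequences bears on whether a factor acted in these cells.

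The protease MBTPS1 was called in no line by limma or at an unadjusted p under 0.05, with changes of 0.15 in RPMI-8402, 0.04 in P12-ICHIKAWA, 0.02 in TALL-1 and -0.03 in SUPT11 (SE 0.10). Its 95% intervals reached at most 0.37 in any line, a bound on a rise that holds for the brightest probe set only. A dimmer set of MBTPS1 changed by 0.30 in SUPT11, 0.22 in P12-ICHIKAWA, 0.18 in TALL-1 and -0.03 in RPMI-8402 (SE 0.14), without a call. MBTPS2 rose in TALL-1 alone among the lines by the test, from 10.97, 11.04 and 11.06 with DMSO to 11.37, 11.29 and 11.33 with NVS-ZP7-3, without overlap. That change was 0.31 ± 0.050 (SE, n = 3 arrays per group; limma adjusted p = 6.44e-05), a 1.24-fold rise. In the other lines its changes were 0.13, 0.13 and 0.08, and the TALL-1 change exceeded that in RPMI-8402 by 0.22 (limma adjusted p = 0.0271) but was not told apart from SUPT11 (limma adjusted p = 0.0787) or P12-ICHIKAWA (limma adjusted p = 0.0852). With DMSO MBTPS1 was at 10.36 in TALL-1 and 10.13 in P12-ICHIKAWA, which were not told apart (limma adjusted p = 0.0553), nor were 9.69 in RPMI-8402 and 9.59 in SUPT11. MBTPS2 was at 11.12 in P12-ICHIKAWA, 11.04 in RPMI-8402 and 11.02 in TALL-1, with no neighbours told apart, and lower in SUPT11 at 10.75 (limma adjusted p = 5.14e-05).

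**Figure D3:**
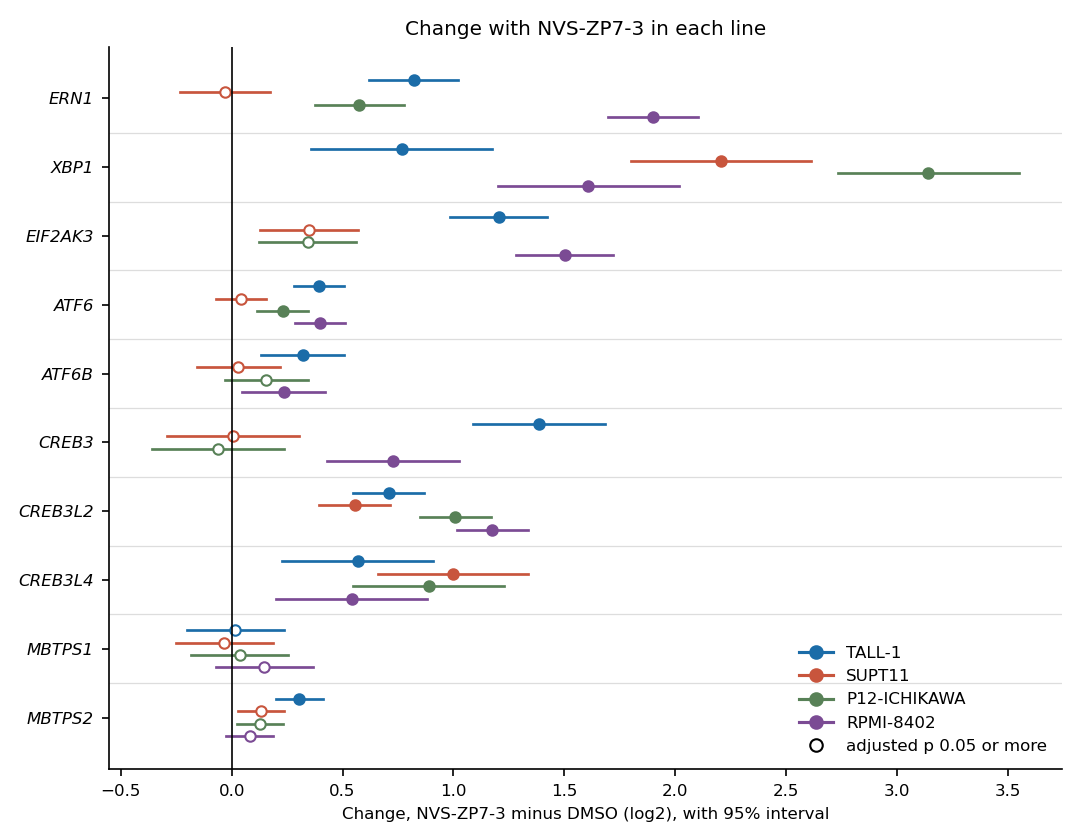
Change with NVS-ZP7-3 (x axis, log2, treated minus DMSO) for each gene (y axis) and line (colour), with the 95% interval as a line and open points for changes that did not pass the test. XBP1, CREB3L2 and CREB3L4 are filled in all 4 lines, and SUPT11 is near 0 for ERN1, ATF6, ATF6B and CREB3.

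Set side by side, the IRE1, PERK and ATF6 arms all had genes past the test in TALL-1 and RPMI-8402. They parted in the other lines, and differences between genes were not tested. ERN1 and EIF2AK3, the genes of the kinase sensors, had their largest changes in RPMI-8402 (1.90 and 1.501) and passed in TALL-1 (0.82 and 1.20). In P12-ICHIKAWA ERN1 passed (0.58) and EIF2AK3 did not (0.34). ATF6 and ATF6B passed in RPMI-8402 and TALL-1 with changes of 0.23 to 0.40, and ATF6 passed in P12-ICHIKAWA too (0.23). XBP1 had its largest changes in P12-ICHIKAWA and SUPT11 (3.14 and 2.21). In SUPT11 the members past the test were XBP1, CREB3L2 and CREB3L4, and of the sensors EIF2AK3 was higher there at an unadjusted p under 0.05 (0.35).

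The change differed among the lines by the F test of the interaction for 6 of the 10 members, beside 35.8% of all genes tested. These were ERN1, XBP1, EIF2AK3, ATF6, CREB3 and CREB3L2. By pairs of lines, the change of 5 members differed between TALL-1 and SUPT11 (26.7% of all genes tested), 5 between TALL-1 and RPMI-8402 (23.6%), 5 between SUPT11 and RPMI-8402 (17.4%), 4 between P12-ICHIKAWA and RPMI-8402 (14.4%), 3 between TALL-1 and P12-ICHIKAWA (21.2%), and 2 between SUPT11 and P12-ICHIKAWA (1.82%). The 2 that told SUPT11 from P12-ICHIKAWA were ERN1 and CREB3L2, with the larger change in P12-ICHIKAWA.

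The DMSO level differed among lines for 9 of the 10 members, beside 96.3% of all genes tested, so that share says nothing particular about them. ATF6B did not pass this F test (limma adjusted p = 0.0548), though 2 of its pairs of lines did. By pairs, 10 members differed between TALL-1 and SUPT11 (78.9% of all genes), 9 between SUPT11 and P12-ICHIKAWA (77.4%), 8 between P12-ICHIKAWA and RPMI-8402 (65.0%), 7 between SUPT11 and RPMI-8402 (79.7%), 7 between TALL-1 and P12-ICHIKAWA (70.3%) and 6 between TALL-1 and RPMI-8402 (70.8%). TALL-1 had the highest mean DMSO level for 8 members, all but CREB3 and MBTPS2, and SUPT11 had the lowest for 7.

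**Figure D4:**
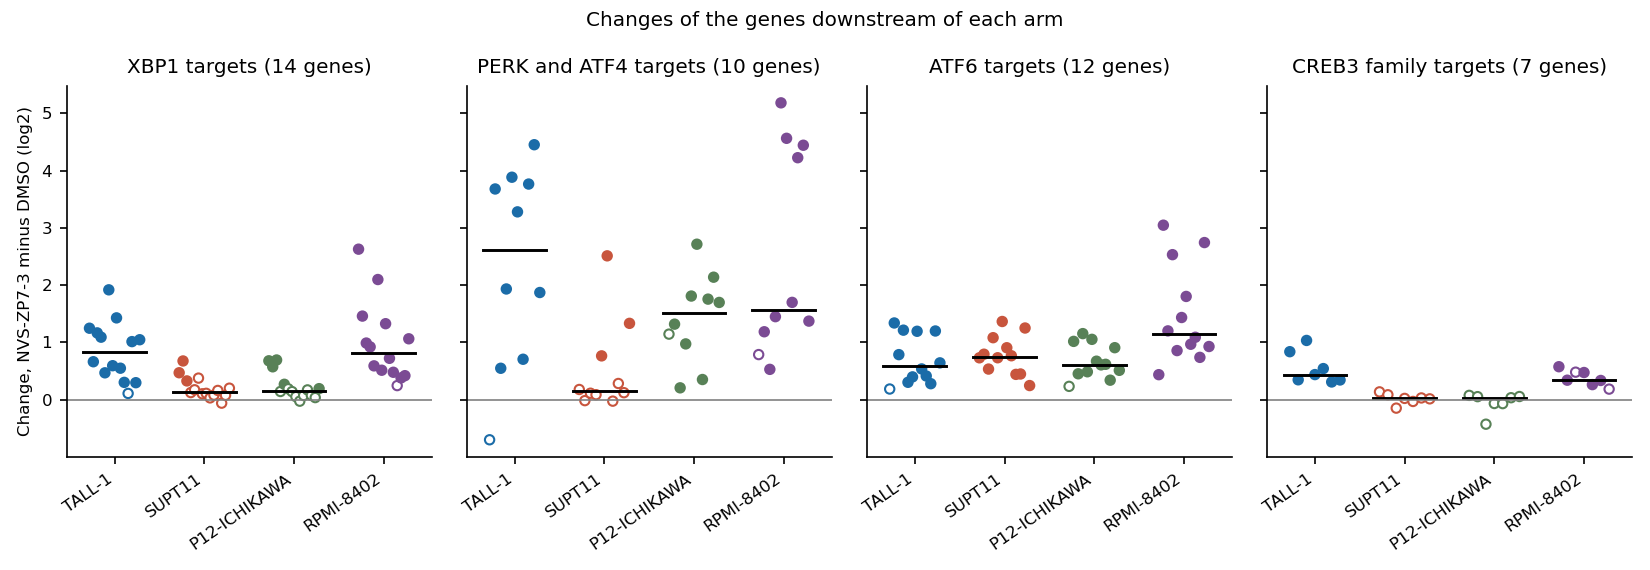
Change with NVS-ZP7-3 (y axis, log2) of each tested gene of 4 target lists (panels), by line (x axis), with filled points for changes that passed the test and a bar at the median. In SUPT11 the bar of the ATF6 targets stands at 0.75 while those of the other lists lie between 0.02 and 0.15.

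The ACTB 3' to 5' difference moved with treatment in TALL-1 and RPMI-8402, the lines with the most calls. With it as a covariate 6 members stayed called in TALL-1, and XBP1 (0.71, limma adjusted p = 0.101), ATF6B and CREB3L4 (0.70, limma adjusted p = 0.0506) did not pass. In RPMI-8402 7 were called, all but ATF6B of the 8. The part of RNA integrity in the changes was not tested further.

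The other probe sets of the members were dimmer. The members had 26 probe sets, the 10 brightest, 14 others of 1 gene and 2 that match several genes. Of the 14, 6 were bright enough to test and 8 were under log2 4 on at least 22 arrays. The second set of ERN1 rose by 1.27 ± 0.15 in RPMI-8402, 1.03 in TALL-1 and 0.74 in P12-ICHIKAWA (limma adjusted p of 0.00443 or less, over all probe sets), and its change of -0.14 in SUPT11 was not called, the same pattern as the brightest. For ATF6, 3 other sets rose in TALL-1, by 0.40 to 0.58, and 2 of them in RPMI-8402, by 0.24 and 0.35, but none in P12-ICHIKAWA, where the brightest had passed. The other sets of ATF6B and MBTPS1 were called in no line. When all sets of a gene were averaged, those at the floor included, XBP1 in TALL-1 (0.28, limma adjusted p = 0.0801) and CREB3L2 in SUPT11 (0.19, limma adjusted p = 0.889) and P12-ICHIKAWA (0.34, limma adjusted p = 0.129) did not pass, and neither did ATF6 in P12-ICHIKAWA (0.17, limma adjusted p = 0.160) and ATF6B in RPMI-8402 (0.02, limma adjusted p = 0.927). XBP1, EIF2AK3, CREB3L2 and MBTPS2 had other sets only below the test's filter, and CREB3 and CREB3L4 had none, so that the changes of these 6 genes rest on 1 probe set each. A second set of CREB3L2 read 2.24, 2.38 and 2.54 with DMSO and 3.08, 4.76 and 5.65 with NVS-ZP7-3 in TALL-1.

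Within lines, the members' profiles fell near different genes. After each line's mean was subtracted, the profile of ERN1 over the 24 arrays was most like those of LINC-PINT, DNAJB9 and ZNF550 (Pearson r = 0.962 in each). EIF2AK3 was nearest to ARMCX3 (0.985), SLC33A1 (0.980) and HSD17B7 (0.979), and ATF6 to CARS1 (0.960), SESN2 (0.958) and SMIM14 (0.951). XBP1 was nearest to HSPA5 (0.913), CREB3L4 (0.906) and ERO1B (0.899), and CREB3L4 to XBP1, MANF (0.868) and TMEM50B (0.860). CREB3L2 lay nearest to ERO1B (0.9754), DDIT3 (0.961) and PDIA4 (0.960), and CREB3 to DYRK4 (0.9753), CIDECP1 (0.969) and SEC13 (0.966). The nearest genes to ATF6B, MBTPS1 and MBTPS2 reached 0.875, 0.885 and 0.910. Among members, EIF2AK3 and ATF6 correlated highest at 0.923, ERN1 and EIF2AK3 at 0.915, and XBP1 with ERN1 at 0.579. These values are descriptions, since all points share the split into treated and DMSO arrays.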

How the data were processed

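The values are log2 expression values as deposited by the authors, 1 table of 54675 probe sets on 24 arrays. The submitters' processing notes name GCRMA, which subtracts background by probe sequence and summarises the probes of a set, and limma, without version or settings, and the genome build is not given in the sources used here. RNA was labelled by the Affymetrix 3' Plus protocol, per the labels. Gene symbols came from GEO's annotation of the platform and were updated through RefSeq GRCh38.p14. Of them 41097 had 1 gene (41043 matched), 1801 several and 11777 none.

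The single-gene probe set with the highest mean stood for a gene, and a gene entered the tests when 3 arrays or more reached log2 4 (10661 of 19775). A model with 8 group means was fitted with limma 3.58.1 in R 4.3.3 (16 residual degrees of freedom), with Benjamini-Hochberg adjustment across every gene tested and calls at an adjusted p below 0.05. The steps were tested on simulated data. Intervals are 95%. The number of arrays, not a count, limits precision.

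The members and lists were chosen with earlier results of these data known. All members are named. Of each other list the rule picked up to 3 called genes a line with the largest change, and for each member the 3 genes with the most similar profile. Not every gene and value that the rule picked is printed. CALR, HGSNAT, COL6A1, SREBF1, ERN2, CREB3L1 and CREB3L3 were named after their values were seen. Arrays with foreign transcripts were left out as an alternative chosen after seeing the data.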

Additional observations from a re-analysis of the deposited data

Results flagged for a closer look

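The change with NVS-ZP7-3 differed among the 4 lines by the F test of the interaction for 6 of the 10 members (limma, adjusted over all genes tested), and these results are listed for that reason. The distance on the log2 scale between the largest and the smallest change was 1.93 for ERN1, from SUPT11 to RPMI-8402. It was 2.37 for XBP1, from TALL-1 to P12-ICHIKAWA, and 1.16 for EIF2AK3, from P12-ICHIKAWA to RPMI-8402. For ATF6 it was 0.36, from SUPT11 to RPMI-8402. For CREB3 it was 1.45, from P12-ICHIKAWA to TALL-1, and for CREB3L2 it was 0.62, from SUPT11 to RPMI-8402. Groups of 3 arrays are too small for a test of single arrays that stand apart.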

How the results depend on the processing

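Each of the 40 changes was recomputed under 37 alternatives. Of these values 1428 kept their direction and their side of the threshold, 7 passed where the reported value had not, 45 lost the threshold, and no called change turned its direction. With the 6 arrays of a line alone, 1 member was called higher in SUPT11 (CREB3L2 and CREB3L4 were lost) and 2 in P12-ICHIKAWA (ERN1, ATF6 and CREB3L4 were lost), where fewer arrays give the spread, and with the mean of all probe sets of a gene 3 were called in P12-ICHIKAWA. Leaving out 1 array each time gave 7 to 9 members higher in TALL-1, 3 in SUPT11, 4 to 7 in P12-ICHIKAWA and 7 to 8 in RPMI-8402. Same-numbered arrays of the groups of a line deviated together at correlations of -0.14 to 0.42. With groups of 3 arrays these values cannot decide whether the numbers pair the samples. With the replicate number as a block (replicate block, over all lines or within each), 9, 3, 5 and 7 members were higher in TALL-1, SUPT11, P12-ICHIKAWA and, last, RPMI-8402, where ATF6B was lost. Without the 3 arrays with foreign transcripts, an alternative chosen after seeing the data, the counts were 8, 3, 5 and 7. ATF6B was then not called in TALL-1 or RPMI-8402. With 1 array left out, the change differed among lines for 6 to 7 members and the DMSO level for 9 to 10. Changes near the floor, as for XBP1 in P12-ICHIKAWA, are limited by the signal over background.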
